A study of Caenorhabditis elegans with 10 samples.

Results

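Wild-type worms labelled as the last larval stage (L4) were set beside wild-type worms labelled as the second larval stage (L2), using the protein-coding genes that both deposited expression tables hold. Of 20404 protein-coding genes found in either table, 14567 stood in both. After 63 histone genes (his-) were left out, 14504 genes remained, and 12488 of them passed a filter on low values. Both groups are *Caenorhabditis elegans* with a wild-type *sftb-1* gene, the worm ortholog of the splicing factor SF3B1, and served as controls for *sftb-1* mutants in a series of 10 libraries.

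The L4 group held 2 libraries. They came from wild-type siblings kept from the *cer3* and *cer7* outcrosses, whose background the labels give as N2, grown for 41 h at 20°C and purified with a column kit, and polyadenylated RNA was captured for sequencing. The L2 group also held 2 libraries, from N2 larvae grown for 23 h at 20°C and passed through a large-particle sorter, with RNA taken through phenol-based extraction and DNase treatment and sequenced after depletion of ribosomal RNA. Stage, sorting, RNA purification, library kit and strain history changed together, so their effects cannot be told apart. Each library was made from whole worms of a synchronized population, at wild-type L2 those within the size and fluorescence window of the sorter. In whole worms, more cells of a type and more RNA per cell cannot be told apart either. The mutant libraries used below are K718E at L4 (alleles *cer3* and *cer7*, 1 library each) and *cer39* at L2 (K718E, R643C and Q552P on 1 protein, 2 unsorted libraries).

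As background, the larval stages of *C. elegans* are separated by molts, at which the epidermis builds a new collagen cuticle under a transient apical matrix. Between L2 and L4 the gonad grows, germ cells proliferate and enter meiosis, and sperm form in late L4 hermaphrodites. Oocytes and yolk follow at the passage to adulthood, when the intestine begins to produce vitellogenins. Heterochronic genes, among them transcription factors and RNA-binding proteins, set the order of larval events in somatic cells.

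Each value is a share of the reads in its own library, scaled to a total of 1000000 protein-coding reads (RPM). The stage ratio is log2 of the mean L4 RPM over the mean L2 RPM after 0.5 RPM was added to each, which damps the ratio of genes with few reads. A gene was counted as different where this ratio was at least 3 in either direction, an 8-fold change, and both libraries of a stage lay above both libraries of the other. No p-value is given for single genes, since the tables were normalized separately, and an exact two-sided permutation test of 2 libraries against 2 cannot go below 0.333. The wild-type libraries held 60563403 and 54379791 protein-coding reads at L4 and 39900817 and 36700369 at L2, so that 3 reads corresponded to between 0.0495 and 0.0817 RPM. Protein-coding genes took 97.4% and 95.4% of all reads at L4, against 71.8% and 76.3% at L2. Ribosomal RNA took 1.98% and 3.90% at L4 and 24.1% and 20.5% at L2. Histone genes, whose replication-dependent mRNAs lack a poly-A tail, took 0.0515% and 0.0513% of protein-coding reads at L4 and 1.06% and 0.961% at L2.

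Of the 12488 genes, 432 were at least 8-fold higher at L4 (3.46%) and 489 were at least 8-fold higher at L2 (3.92%). These 2 shares are the background for every count past 8-fold in the gene lists below. Both counts cover shared genes only. Of 5786 further genes listed for L4 alone, 1294 measured at least 1 RPM at L4, whereas 42 protein-coding genes were listed for L2 alone. The 2 counts therefore do not show which stage had more such genes. The ratios ran from -7.06 to 12.05 around a median of -0.32, and 5708 genes lay within 2-fold. By the order of the libraries alone, 38.4% of all genes had both L4 libraries above both L2 libraries and 52.2% had the reverse. The 432 L4-high genes took 7.84% and 7.65% of the protein-coding reads at L4 and 0.194% and 0.233% at L2. In the opposite direction, the 489 L2-high genes took 6.37% and 6.94% at L2 and 0.427% and 0.514% at L4. Just inside the 8-fold line on the L4 side stood *fbxa-206* (3.003), and just outside it stood *cdc-25.1* (2.999). On the L2 side the nearest genes were *W02F12.8* inside and *acox-1.2* outside (-2.999).

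**Figure D1:**
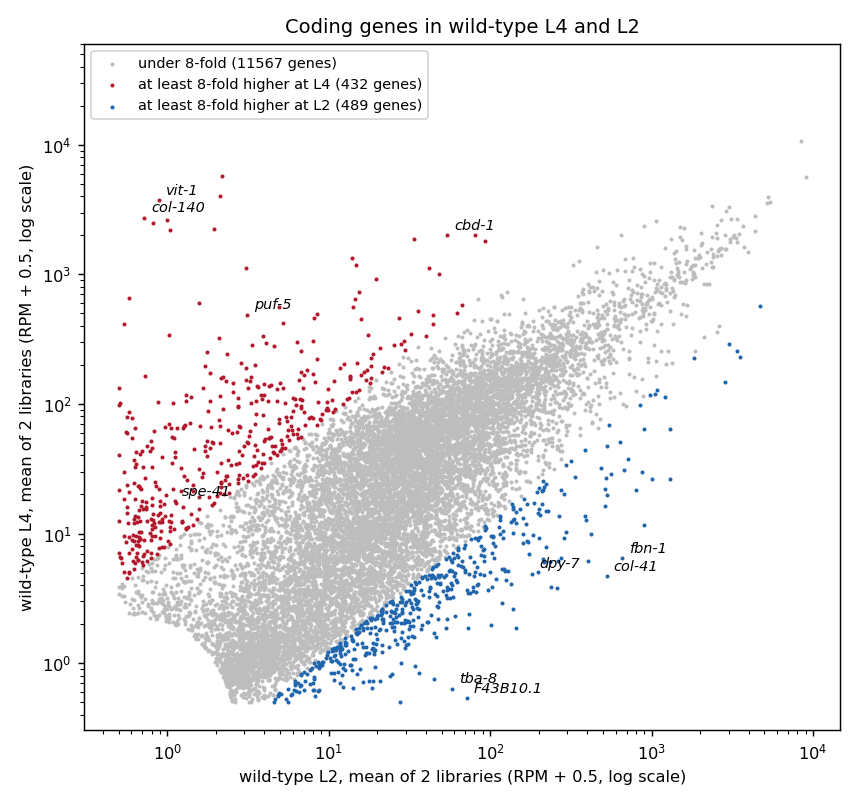
Mean RPM + 0.5 of each of 12488 protein-coding genes in wild-type L2 (x axis) and wild-type L4 (y axis), both on log scales, each the mean of 2 libraries. Red points are the 432 genes at least 8-fold higher at L4, blue points the 489 genes at least 8-fold higher at L2 and grey points the rest, and the red points reach farther from the diagonal than the blue ones.

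The replicates were closer at L4 than at L2. Over the same genes, the 2 L4 libraries differed by a median of 0.08 on the log2 scale, and 18 genes (0.144%) differed at least 2-fold. The 2 L2 libraries differed by a median of 0.22, and 954 genes (7.64%) differed at least 2-fold, 10 of them at least 8-fold. All 432 L4-high genes kept at least 4-fold between their closest libraries, and 373 kept 8-fold. Among the L2-high genes, 443 of 489 kept 4-fold between their closest libraries and 228 kept 8-fold. The smallest gap was that of *fmo-2*, a flavin monooxygenase, which measured 1.49 and 22.5 RPM at L2 and 0.595 and 0.386 RPM at L4. A count test on the reads recovered from both tables (edgeR quasi-likelihood, tested against an 8-fold change, Benjamini-Hochberg threshold 0.05) called 397 genes higher at L4 and 98 higher at L2, of which 365 and 86 were among the genes above.

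The largest rises were those of yolk and cuticle genes. *vit-1* (X:7727889-7733168, plus strand, WBcel235), which encodes a vitellogenin, a yolk lipoprotein precursor, measured 3706 and 3801 RPM at L4 and 0.253 and 0.523 RPM at L2. Its ratio of 12.05 was the highest of all genes, against a replicate SD of 0.22. *vit-4*, a second vitellogenin, measured 5657 and 5888 RPM at L4 and 1.98 and 1.38 RPM at L2. Both genes were near absent at L2 and among the genes with the most reads at L4. *vit-3*, *vit-4* and *vit-5* are close copies of each other, so the division of reads among them is uncertain.

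Of the 12 genes with the largest rise and at least 50 RPM at L4, 9 were cuticle collagens, the short triple-helical proteins that form the worm's exoskeleton. *col-140* measured 2805 and 2655 RPM at L4 and 0.0761 and 0.358 RPM at L2, a ratio of 11.90. *col-139*, which lies elsewhere on the same chromosome, measured 2581 and 2378 RPM against 0.279 and 0.358 RPM. The L2 values of *col-140* stood on 3 and 13 reads. Ratios of 11.38, 11.05, 10.89, 10.17, 10.16, 9.59 and 8.51 belonged to *col-122*, *col-181*, *col-124*, *col-8*, *col-129*, *col-143* and *col-184*. In each of these collagens both L4 libraries were above 400 RPM and both L2 libraries were below 3 RPM. The L2 value of *col-124* differed between the replicates, at 0.405 and 2.86 RPM, and its ratio was 10.23 without L2 replicate 1 and 12.12 without replicate 2. *col-122* had 12.17 without L2 replicate 2. The remaining gene of the 12 was *C39D10.7*, at 598 and 599 RPM at L4 and 0.456 and 1.68 RPM at L2, with a ratio of 9.29 without L2 replicate 2.

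**Figure D2:**
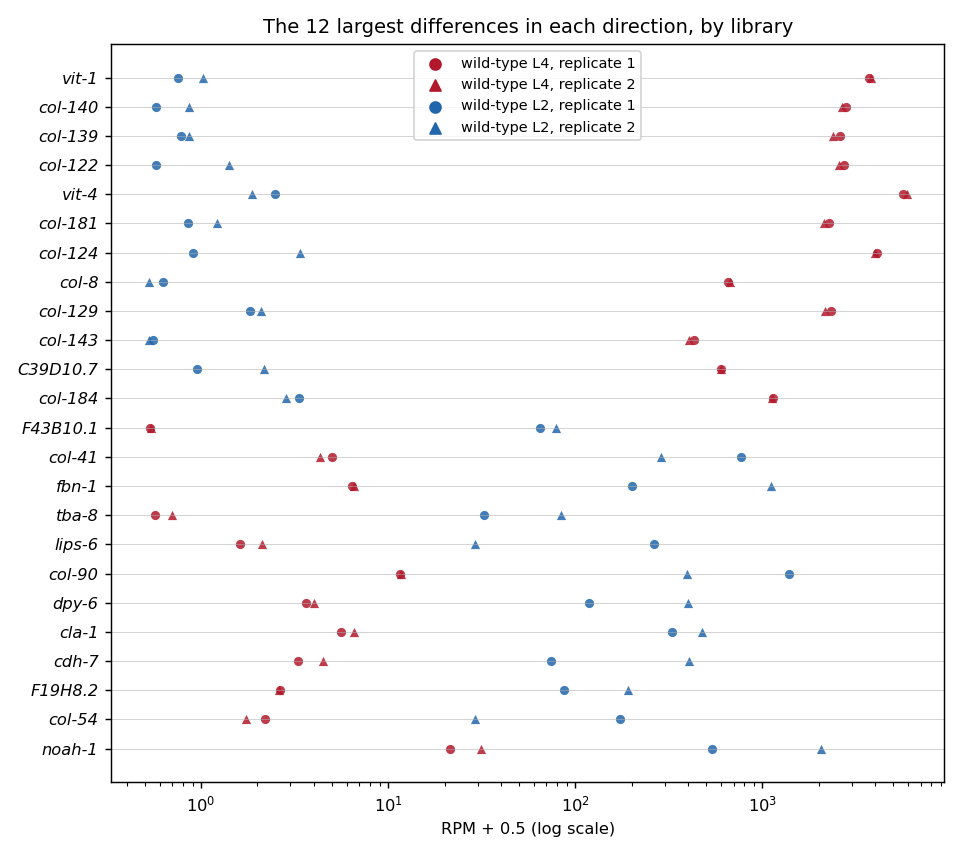
RPM + 0.5 on a log scale in each wild-type library for the 12 genes with the largest rise at L4 (*vit-1* to *col-184*) and the 12 with the largest rise at L2 (*F43B10.1* to *noah-1*). Red marks L4, blue marks L2, circles replicate 1 and triangles replicate 2, and the 2 L4 marks lie closest together for the genes high at L4 while the L2 marks of *fbn-1*, *lips-6* and *col-54* lie well apart.

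Oocyte and eggshell genes were past 8-fold at L4 as a whole list. All 18 members that passed the filter were at least 8-fold higher at L4, from 3.36 for *mex-3* to 7.29 for *puf-5*, with a median of 5.88 beside -0.32 over all genes. *puf-5*, a Pumilio-family repressor of translation in oocytes, measured 511 and 465 RPM at L4 and 2.23 and 3.03 RPM at L2. *mex-5*, a zinc-finger protein that polarizes the early embryo, measured 575 and 545 RPM against 3.70 and 5.12 RPM. The chitin-binding eggshell proteoglycan gene *cpg-2* measured 1393 and 1291 RPM against 14.1 and 12.9 RPM. *cpg-3*, from the same eggshell, had a ratio of 7.16. The stage groups were far apart in each of them, and the 18 genes together took 1.01% and 0.947% of the reads at L4 and 0.0168% and 0.0214% at L2.

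Most of the sperm genes that could be compared rose as well. The major sperm protein genes (msp-), which encode the cytoskeletal protein that drives crawling of nematode sperm, all fell outside the shared genes, as 31 of them stood in the L4 table and none in the L2 table. Among other sperm genes, 40 of the 55 in the L4 table were also missing from the L2 table. All 15 that could be compared had both L4 libraries above both L2 libraries (38.4% of all genes). Of these, 10 were at least 8-fold higher (median 3.99). The 15 took 0.0298% and 0.0321% of the reads at L4 and 0.000767% and 0.000809% at L2. They thus passed the filter mainly through L4, although it removed no shared member. *gsp-4*, a sperm protein phosphatase, measured 57.5 and 60.8 RPM at L4 and 0.127 and 0 RPM at L2, the latter values from 5 and 0 reads. *smz-1*, a sperm meiosis PDZ protein, measured 42.9 and 43.2 RPM against 0.253 and 0.138 RPM. *spe-11*, a paternal protein that the embryo needs, measured 23.7 and 28.6 RPM against 0.329 and 0.138 RPM. Among shared genes past the filter, spe- genes had the highest median of all 123 symbol classes with at least 10 members. It was 2.75 over 18 genes, and *spe-18* led the class at 6.49. *spe-18* passed the filter through L4, at means of 54.1 RPM at L4 and 0.107 RPM at L2, and such members favour a high median. A further 7 spe- genes at 1 RPM or more at L4 stood outside the shared set.

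Germ line and meiosis genes were higher at L4 without exception in the order of the libraries, but with smaller ratios. Both L4 libraries exceeded both L2 libraries for all 38 members (38.4% of all genes), 12 passed 8-fold, and the median was 2.34. *gld-1*, which encodes an RNA-binding repressor of the meiotic germ line, measured 932 and 917 RPM at L4 and 16.21 and 22.3 RPM at L2. *cpb-1*, a cytoplasmic polyadenylation factor of spermatogenesis, measured 51.2 and 48.5 RPM against 1.32 and 1.95 RPM. The axis protein genes *htp-2* (3.68), *him-3* (3.37) and *htp-1* (3.02) were among the 12, while a further axis gene, *htp-3* (2.28), and the meiotic cohesin gene *rec-8* (2.07) were not. The Notch receptor gene *glp-1* had 2.39, and the Pumilio-family genes *fbf-1* and *fbf-2*, which maintain germline stem cells, had 1.30 and 0.93. Read shares for the list were 0.672% and 0.671% at L4 and 0.104% and 0.136% at L2.

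DNA replication and cell cycle genes had both L4 libraries above both L2 libraries in 39 of 41 cases (38.4% of all genes), with 5 past 8-fold and a median of 1.89. Those 5 were cyclins. *cyb-2.2* measured 192 and 184 RPM at L4 and 2.56 RPM in both L2 libraries, a ratio of 5.94, and its near-identical copy *cyb-2.1* had 5.35. The B-type cyclin *cyb-3* measured 472 and 440 RPM against 24.9 and 28.5 RPM, although its ratio was -0.73 when only transcripts listed in both tables were summed. *cyb-1* reached 3.50 and the S-phase cyclin *cye-1* reached 3.11. The 2 exceptions were the G1 regulators *cyd-1* (-0.82) and *cdk-4* (-0.60), which had both L2 libraries above both L4 libraries.

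The list named for the somatic gonad divided. The innexins *inx-8*, *inx-22* and *inx-14*, gap junction subunits that couple sheath cells and germ cells, were past 8-fold at L4. Which of these cells held the mRNAs was not measured, so the rise cannot be assigned to the somatic gonad or to the germ line. *inx-8* measured 63.95 and 67.5 RPM at L4 and 1.24 and 1.49 RPM at L2. The remaining 9 of 12 members lay within 8-fold, down to -2.73 for *spv-1*, a RhoGAP of the spermatheca at 14.2 and 15.7 RPM against 102 RPM in both L2 libraries. The list median was -0.23, close to that of all genes.

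**Figure D3:**
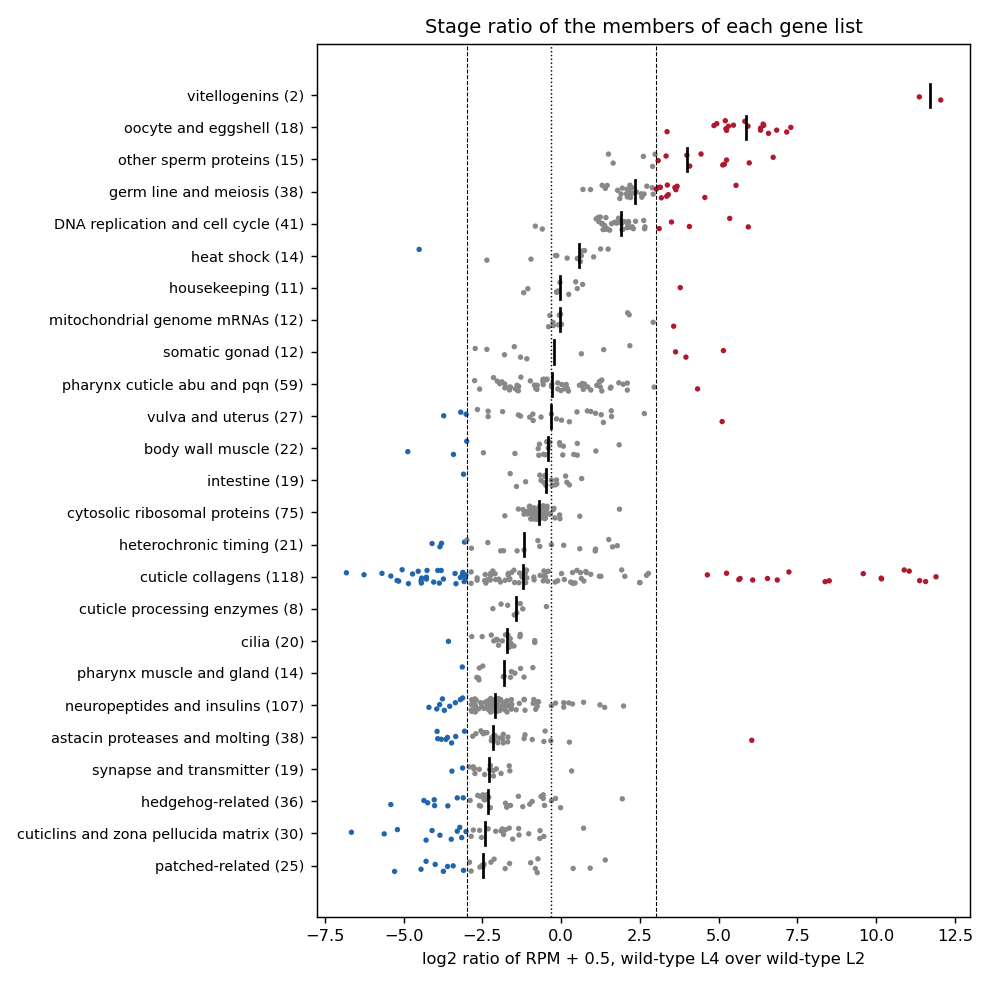
Stage ratio (x axis, log2 of RPM + 0.5 at L4 over L2) of every member past the filter in 25 gene lists, with the number of members in parentheses. Red points are past 8-fold at L4 and blue points past 8-fold at L2, black bars are list medians, dashed lines the 8-fold limits and the dotted line the median of all genes (-0.32), and the 18 oocyte and eggshell genes all lie right of the upper limit.

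Genes higher at L2 were led by *F43B10.1* (on X), which measured 64.04 and 78.0 RPM at L2 against 2 reads in each L4 library (0.0331 and 0.0368 RPM), and by the epidermal matrix. *col-41* measured 765 and 286 RPM at L2 and 4.51 and 3.83 RPM at L4. *fbn-1*, a fibrillin-like protein of the apical matrix, measured 200 and 1106 RPM at L2 and 5.87 and 6.07 RPM at L4, a ratio of -6.66. Ratios of the remaining genes of the 12 largest ran from -6.52 for *tba-8*, an alpha-tubulin, to -5.62 for *noah-1*. They included *col-90*, *col-54*, the mucin-like cuticle gene *dpy-6*, the lipase-like *lips-6*, the cadherin *cdh-7*, the active zone protein gene *cla-1* and *F19H8.2*. Every one of the 12 had its L2 libraries clear of its L4 libraries. Many of these ratios depended on the L2 replicate. *fbn-1* ran from -7.42 without replicate 1 to -4.96 without replicate 2, *lips-6* from -3.95 to -7.13 and *col-54* from -3.90 to -6.47. Without replicate 1, *col-41*, *col-90*, *dpy-6*, *cdh-7* and *noah-1* had -5.94, -5.09, -6.70, -6.69 and -6.28. Without replicate 2, *col-90*, *dpy-6*, *cdh-7*, *noah-1*, *tba-8* and *F19H8.2* had -6.90, -4.95, -4.25, -4.35, -5.68 and -5.05. All of the 12 stayed past 8-fold without either L2 library.

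Cuticle collagens as a family pointed in both directions. Of 118 past the filter, 18 were at least 8-fold higher at L4 and 31 at least 8-fold higher at L2, with a median of -1.22 and ratios from -6.82 to 11.90. The shared members took 3.90% and 3.87% of the reads at L4 and 5.50% and 4.16% at L2. Collagens outside the shared set took a further 1.36% and 1.30% at L4, and their L2 values were not analysed. The share of the whole family was therefore not compared between the stages. *col-3*, which is among the 8 genes with the most reads at L2 (4844 and 4490 RPM), measured 515 and 619 RPM at L4, a ratio of -3.04 that fell short of 8-fold without L4 replicate 1 (-2.91) or L2 replicate 1 (-2.98). Of 8 enzymes that process collagen, none passed 8-fold and all had both L2 libraries above both L4 libraries (52.2% of all genes). Their median was -1.45, with *phy-2*, a prolyl 4-hydroxylase subunit, at 28.5 and 34.9 RPM at L4 and 112 and 177 RPM at L2.

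The 6 collagens known from the annular furrows of the cuticle, chosen here after their values had been seen, were all on the L2 side. *dpy-7* measured 68.6 and 293 RPM at L2 and 3.50 and 5.30 RPM at L4. *dpy-2* measured 99.1 and 425 RPM at L2 and 4.99 and 6.38 RPM at L4, with a ratio of -6.10 without L2 replicate 1 and -4.01 without replicate 2. The ratios of *dpy-9*, *dpy-3*, *dpy-8* and *dpy-10* were -5.17, -5.05, -4.85 and -4.43. In each of the 6, L2 replicate 2 was above L2 replicate 1, and both L4 libraries were lower still.

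Cuticlins and other zona pellucida proteins, which line the cuticle and shape alae and lumens, were higher at L2 in 28 of 30 cases by the order of the libraries (52.2% of all genes) and in 11 cases past 8-fold (median -2.43). *noah-1* measured 537 and 2048 RPM at L2 and 20.9 and 30.7 RPM at L4. *noah-2* measured 297 and 1294 RPM at L2 and 16.98 and 25.4 RPM at L4. Without L2 replicate 2 the ratios of *noah-1* and *noah-2* were -4.35 and -3.78, and without replicate 1 they were -6.28 and -5.90. *let-653*, a lumen matrix protein, measured 50.8 and 146 RPM at L2 and 4.66 and 4.51 RPM at L4, a ratio of -4.29 that became -3.33 without L2 replicate 2. The sole member above 0 was *dyf-7* (0.71), a zona pellucida protein of sensory dendrites.

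Astacin proteases and molting genes had a median of -2.15 over 38 genes, 8 of them past 8-fold at L2 and 1 at L4. Over all genes these shares were 3.92% and 3.46%. *nas-29*, an astacin metalloprotease, measured 28.6 and 8.61 RPM at L2 and 0.644 and 0.846 RPM at L4, and its ratio was -2.87 without L2 replicate 1, short of 8-fold, and -4.55 without replicate 2. *mlt-11*, a Kunitz-domain protease inhibitor needed for molting, measured 161 and 815 RPM at L2 and 24.8 and 38.7 RPM at L4, and its ratio without L2 replicate 2 was -2.32, short of 8-fold, and -4.66 without replicate 1. The exception on the L4 side was *nas-20*, at 39.7 and 44.1 RPM against 0.228 and 0.0549 RPM.

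Hedgehog-related and patched-related genes are expanded families in nematodes with roles in the epidermis and its matrix. Of 36 hedgehog-related genes, 8 were past 8-fold at L2 (3.92% of all genes) and none at L4 (3.46% of all genes). Their median was -2.31. *wrt-10* measured 88.3 and 464 RPM at L2 and 4.43 and 7.58 RPM at L4, and *grd-13* measured 254 and 113 RPM against 9.47 and 9.07 RPM. Of 25 patched-related genes, 8 were past 8-fold at L2 and none at L4 (median -2.48), beside the same shares of all genes. *ptr-10* measured 28.3 and 116 RPM at L2 and 0.909 and 1.82 RPM at L4, and *ptr-4* measured 212 and 323 RPM against 10.7 and 15.8 RPM. Without L2 replicate 1 the ratios of *wrt-10*, *grd-13* and *ptr-10* were -6.16, -3.54 and -5.97, and without replicate 2 those of *wrt-10* and *ptr-10* were -3.77 and -3.95. The one hedgehog-related gene above 0 was *grd-6*, at 1.94.

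The L2 replicates themselves differed in these families, more often with replicate 1 higher. At least 2-fold differences toward replicate 1 and toward replicate 2 were found in 47.2% and 5.56% of hedgehog-related genes, 39.5% and 5.26% of astacin and molting genes and 35.6% and 15.3% of cuticle collagens. Among the 25 patched-related genes the numbers were 9 and 2. Cuticlins and zona pellucida genes divided evenly, at 20.0% each way. Among the 489 L2-high genes, 21.3% were at least 2-fold higher in L2 replicate 2 and 19.8% were at least 2-fold higher in replicate 1, whereas 4 genes differed 2-fold between the L4 replicates. Over all 12488 genes those shares were 2.11% and 5.53% at L2. On the replicate 2 side stood *fbn-1* (2.46), *dpy-3* (2.50), *lpr-3* (2.57), *wrt-10* (2.39) and *mlt-11* (2.34), given as log2 of replicate 2 over replicate 1. On the replicate 1 side stood *lips-6* (-3.18), *col-54* (-2.57) and *grl-1* (-2.29). Both libraries were from sorted N2 populations grown for the same time, and what separates them was not tested. The genes named here were picked after their values had been seen.

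**Figure D4:**
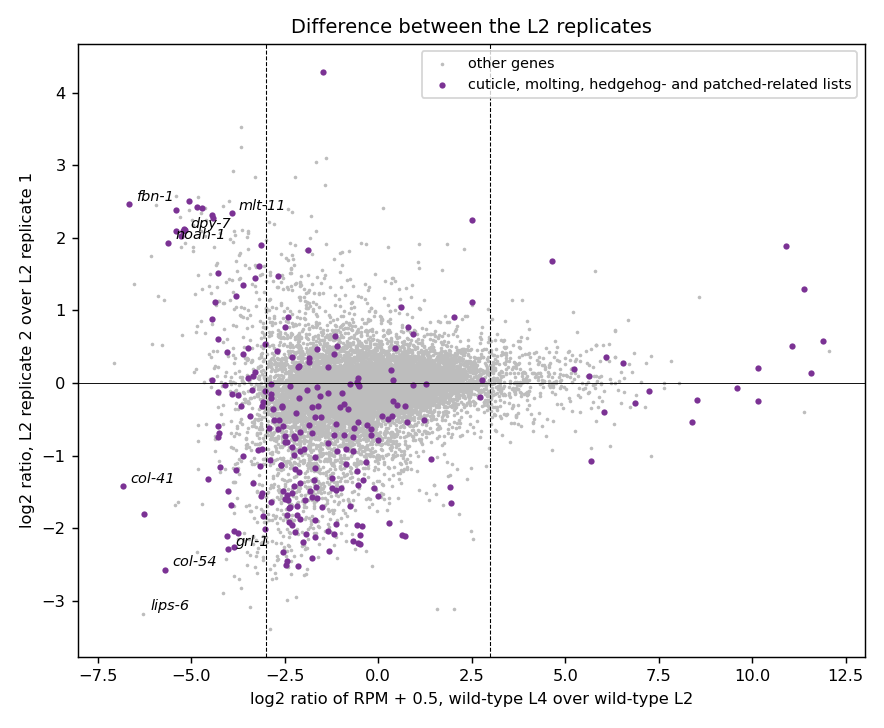
Difference between the 2 wild-type L2 libraries (y axis, log2 of replicate 2 over replicate 1, each RPM + 0.5) against the stage ratio (x axis). Purple points are members of the cuticle collagen, cuticlin, molting, hedgehog-related and patched-related lists and grey points all other genes, and purple points left of the dashed 8-fold line reach above 2 (*fbn-1*, 2.46) and below -2 (*col-54*, -2.57).

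Heterochronic genes included 4 past 8-fold at L2 (3.92% of all genes) and none at L4 (3.46% of all genes). *lin-46*, which acts late in the LIN-28 pathway, measured 45.8 and 19.8 RPM at L2 and 1.57 and 1.33 RPM at L4, a ratio of -4.10 that became -3.38 without L2 replicate 1. *nhr-85*, a Rev-Erb-type nuclear receptor, measured 72.1 and 67.2 RPM against 4.76 and 4.32 RPM, and *nhr-25*, a nuclear receptor of the epidermis, had a ratio of -3.85. *hbl-1*, a zinc-finger factor that specifies L2 fates, measured 26.8 and 48.1 RPM at L2 and 3.90 and 4.12 RPM at L4, and fell short of 8-fold without L2 replicate 2 (-2.60). *lin-14*, an early-larval transcription factor, was also lower at L4 (mean 11.6 against 45.3 RPM), within 8-fold. *lin-28*, an RNA-binding protein of early larvae, lay on the L4 side, at 36.4 and 37.1 RPM against 17.5 and 16.9 RPM. The list median was -1.18 over 21 genes.

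Vulva and uterus genes had a median of -0.31. *apx-1*, a Delta-like Notch ligand, was higher at L4, at 95.6 and 92.6 RPM against 1.82 and 2.67 RPM. The opposite held for *cdh-3*, a Fat-like cadherin (-3.73), for the Notch receptor gene *lin-12* (-3.19) and for *egl-43*, a zinc-finger factor (-3.02). *egl-43* fell just short of 8-fold without L4 replicate 2 and without L2 replicate 2 (-2.99). *lin-3*, which encodes the EGF-like signal for vulval induction, had a ratio of 2.64, and the 8 sqv- genes of glycosaminoglycan synthesis had ratios of 0.50 (*sqv-6*) and above.

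Neuronal genes were lower at L4 as a share of reads. Synapse and transmitter genes had a median of -2.28 over 19 genes, and 18 had both L2 libraries above both L4 libraries (52.2% of all genes). *eat-4*, a vesicular glutamate transporter, measured 37.2 and 30.6 RPM at L2 and 2.43 and 2.78 RPM at L4, and the kinesin gene *unc-104* had a ratio of -3.13 that fell just short of 8-fold without L4 replicate 1 (-2.99) or L2 replicate 1 (-2.96). Among 107 neuropeptide and insulin genes, 9 were past 8-fold at L2 (3.92% of all genes) and none at L4 (3.46% of all genes). Their median was -2.09. *nlp-34* (67.1 and 49.7 RPM at L2, 2.23 and 3.18 RPM at L4) and the insulin-like *ins-33* (18.4 and 19.6 against 0.628 and 0.902 RPM) were the farthest. Cilium genes had a median of -1.73, with the dynein heavy chain *che-3* at -3.58. The mec- class, named for touch receptor neurons, had the lowest median of all classes (-2.75 over 14 genes), and *mec-7*, a beta-tubulin of those neurons, measured 245 and 173 RPM at L2 and 20.5 and 20.8 RPM at L4. Guanylyl cyclase genes of the gcy- class, many of them sensory receptors, had a median of -2.21.

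Muscle genes divided by member. *ttn-1*, which encodes a titin-like protein, measured 665 and 1079 RPM at L2 and 24.2 and 34.5 RPM at L4 (ratio -4.87). The giant sarcomere kinases *unc-89* and *unc-22* followed at -3.42 and -3.004, and both came to under 8-fold without L2 replicate 2 (-2.87 and -2.43), as did *unc-22* without L4 replicate 1 (-2.94). The remaining 19 of 22 members were within 8-fold, with *unc-54*, the main myosin heavy chain, at 0.05 and *act-2*, an actin, at 1.84. The list median was -0.43. Of 48 genes with a transcript of at least 10000 nucleotides, a limit set after the values had been seen, none was past 8-fold at L4 and 11 (22.9%) were past it at L2, beside 3.92% of all genes. In the K718E and *cer39* libraries the ratios of *ttn-1* and *unc-22* were -2.45 and -0.41.

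Pharyngeal muscle and gland genes were all lower at L4 by the order of the libraries (14 of 14, against 52.2% of all genes), with 1 past 8-fold and a median of -1.83. The gland mucin-like genes *phat-7*, *phat-8* and *phat-4* had ratios between -2.68 and -2.61. The abu- and pqn- genes, which encode repeat-rich proteins of the pharyngeal cuticle, had a median of -0.30, with *pqn-82* past 8-fold at L4 (4.33). Intestinal genes, listed without the vitellogenins, had a median of -0.49. Of these 19, 13 had both L2 libraries above both L4 libraries (52.2% of all genes) and 1 had the reverse. The one past 8-fold was *ftn-1*, a ferritin at 21.1 and 17.7 RPM at L2 and 1.82 RPM in both L4 libraries. Its ratio of -3.10 became -2.97 without L2 replicate 1.

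Ribosomal protein genes took 9.16% and 8.81% of the reads at L4 and 14.8% and 14.1% at L2, with a median of -0.70 and no member past 8-fold. A paralogous pair went opposite ways within that range. *rpl-11.1* measured 1186 and 1158 RPM at L4 and 327 and 324 RPM at L2, whereas *rpl-11.2* measured 479 and 469 RPM at L4 and 1712 and 1567 RPM at L2. The glyceraldehyde-3-phosphate dehydrogenase genes also diverged. *gpd-1* measured 214 and 199 RPM at L4 and 14.7 and 14.4 RPM at L2 (ratio 3.78), while its paralogs *gpd-2* and *gpd-3* had -1.19 and -1.06. Of 11 housekeeping genes, *gpd-1* was the one past 8-fold, and the median of the list was -0.04. Copies this similar share reads, so their division is uncertain. Separately, the ratio of *gpd-3* moved by over 8-fold when only transcripts listed in both tables were summed, and the cause was not tested.

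The 12 protein-coding mRNAs of the mitochondrial genome had a median of -0.04. Both L4 libraries were above both L2 libraries for 4 of them, the reverse held for 2, and the rest overlapped, beside 38.4% and 52.2% of all genes. *ndfl-4* measured 27.1 and 27.6 RPM at L4 and 2.13 and 1.57 RPM at L2 (3.57). *nduo-2*, *nduo-6* and *nduo-3*, like *ndfl-4* subunits of respiratory complex I, had ratios of 2.92, 2.16 and 2.11. The other 8 lay between -0.40 and 0.01.

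Heat shock genes had a median of 0.56, which was -0.21 without L4 replicate 1. The L4 replicates differed at least 2-fold in 6 of 14 members, and *hsp-16.41*, a small heat shock protein, measured 9.57 and 1.75 RPM at L4 and 1.34 and 2.04 RPM at L2, so that its stage groups overlapped. *F44E5.5*, an Hsp70 family gene, was the one member past 8-fold, at 105 and 138 RPM at L2 and 5.53 and 4.16 RPM at L4.

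Of the 8 shared genes with the largest share of reads at L4, *vit-1*, *vit-4* and *col-124* were past 8-fold. So was *col-3* among the 8 at L2. Outside the shared set, *vit-6* and *vit-2* were above all 8 at L4, at means of 19480 and 17870 RPM. *eef-1A.1*, *eef-2*, *ctc-1*, *rpl-3* and *ant-1.1* were among the 8 in both stages, uncorrected for length, a choice that keeps ratios small, and theirs lay between -0.69 and 0.35. *sftb-1* itself measured 237 and 233 RPM at L4 and 164 and 180 RPM at L2, a ratio of 0.45. Of the other classes at the ends of the ranking, him- (1.84), bath- (1.45), set- (1.14), abu- (1.13), npp- (1.07), cdc- (1.04) and ints- (1.03) had the highest medians after spe-. At the low end, after mec-, stood lips- (-2.73), ptr- (-2.48), grl- (-2.42), dpy- (-2.31), fipr- (-2.24), gcy- (-2.21) and nas- (-2.15).

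The chromosomes differed in both directions. On X, 1.64% of 1829 genes were past 8-fold at L4 and 5.69% at L2, with a median of -1.13. Among the nuclear chromosomes, IV had the highest share on the L4 side (5.21% of 2034 genes). The medians of the other autosomes ran from -0.61 on V to 0.22 on I. Among genes with 10 to 65 exons, 1.46% were past 8-fold at L4 and 5.32% at L2, against 4.66% and 4.06% of genes with 1 to 4 exons. L4-high genes had an L4-high gene next to them on the chromosome in 13.4% of cases, against 6.55% of the other genes, and for L2-high genes these shares were 18.9% and 7.0%. These are descriptions over genes, which are not independent replicates.

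The same ratio was formed from libraries that share none with the wild-type groups, K718E at L4 over *cer39* at L2. There 3.93% and 4.05% of 12721 genes were past 8-fold in the 2 directions. Per the methods, the mutant libraries of each stage had the RNA purification and library kit of the wild-type ones. This ratio therefore cannot tell stage from kit or purification either. Of the 432 L4-high genes, 388 (89.8%) were also past 8-fold there, 426 were past 4-fold and 430 had the same sign. Of the 489 L2-high genes, 285 (58.3%) were past 8-fold, 451 past 4-fold and 487 of the same sign. The farthest exceptions were *hrg-1*, a heme transporter (-0.17 there), and *dct-7* (0.34 there). Against the unsorted *cer39* larvae, wild-type L4 kept 397 of 432 and 351 of 489 genes past 8-fold, in a comparison that reuses the wild-type L4 libraries.

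**Figure D5:**
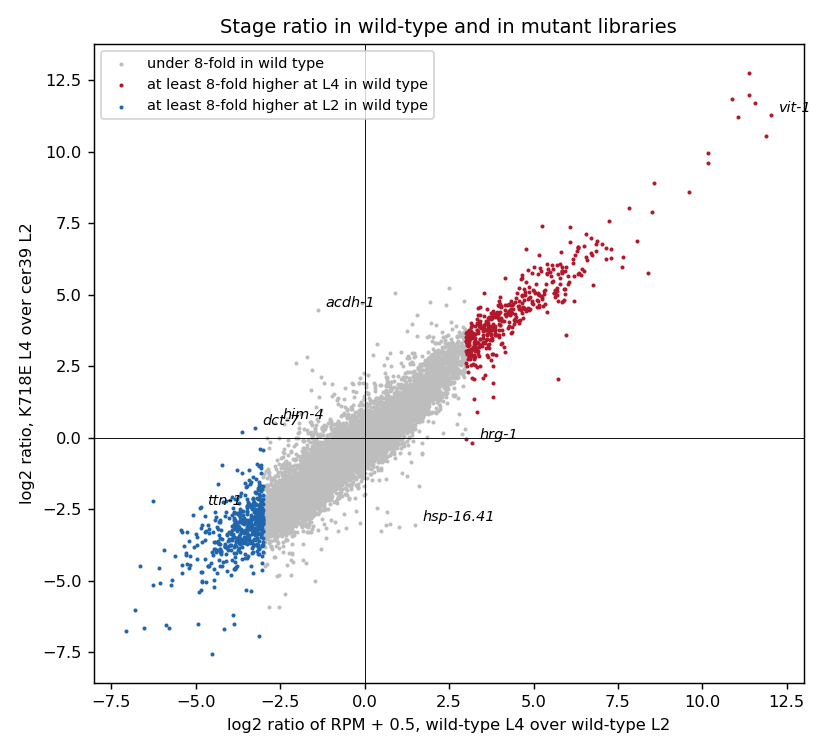
Stage ratio of each gene in wild type (x axis, L4 over L2) and in the mutant libraries (y axis, K718E L4 over *cer39* L2), both as log2 of RPM + 0.5 with means of 2 libraries. Red and blue points passed 8-fold in wild type, and 388 of the 432 red points lie above 3 on the y axis while 285 of the 489 blue points lie below -3.

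Genes outside the shared set bear on these counts. The L4 table held 5786 protein-coding genes that the L2 table did not, and they took 8.86% of the protein-coding reads in each wild-type L4 library. The L4 table lists 29595 transcripts at 0 in all of its libraries, while the L2 table lists 19, and the L2 values of these genes were not analysed here. Among them, *vit-2*, *vit-3*, *vit-5* and *vit-6* took 5.28% and 5.20% of the L4 reads, led by *vit-6* with 19730 and 19230 RPM. The 31 msp- genes, 28 of them at 1 RPM or more, took 0.321% and 0.328%. Collagens outside the set took 1.36% and 1.30%, among them *col-19* at 1931 and 1902 RPM, a collagen known for its onset at the adult molt. *bli-2*, another late cuticle collagen, stood in both tables at 17.2 and 29.2 RPM at L4 and 0.963 and 6.44 RPM at L2. In libraries labelled L4, mRNAs known from the passage to adulthood were therefore among those with the largest read shares, and the share of worms past L4 was not measured.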

How the data were processed

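Whole worms were sequenced, with 2 libraries per group. Per the methods and notes, the authors aligned reads to WBcel235 with STAR, quantified transcripts with RSEM and normalized counts with DESeq2, with no tool versions stated. The deposited signal values hold these normalized counts, by transcript, in separate tables for L4 (58941 transcripts) and L2 (23421 transcripts), 20064 of them in both. Values were whole multiples of 1 read within 0.1 for 100% of values in the wild-type libraries. The L2 row of *F31C3.10*, with shifted cells, was left out. The authors' comparison tables of DESeq2 and rMATS, which hold fold changes and p-values, were not used.

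Transcripts were summed per gene, his- genes left out, and RPM computed over the protein-coding total of the library. Genes needed a mean of 1 RPM over 4 libraries. The pseudocount was 0.5 RPM and the threshold 8-fold. Symbols came from the gene name table, or from the files for mitochondrial genes and shared symbols, and coordinates from an Ensembl annotation of WBcel235. Python 3.11.15, pandas 2.3.3, NumPy 2.4.6, R 4.3.3 and edgeR 4.0.16 were used, and the count test was tested on simulated data with 200 changed genes.

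The genes and 26 lists were chosen with earlier results of these data known. Named genes are, per direction, the 12 with the largest ratio at 50 RPM or more, and up to 4 members of each list. Also named are the 8 shared genes with the most reads in each stage and *sftb-1*. So are up to 2 of each of 8 classes at each end. Other genes were picked with their values known. Alternatives changed the pseudocount, filter, scaling, fold, measure, gene set and libraries. Wild-type L4 libraries came from separate outcrosses, and per the methods the wild-type L2 libraries came from 2 sorted populations.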

Additional observations from a re-analysis of the deposited data

Results flagged for a closer look

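For 12 genes, both L4 libraries lay on one side of both L2 libraries in wild type and on the opposite side in the comparison of K718E L4 with *cer39* L2. The difference between the comparisons was not tested. For 11 of them the 2 ratios were also at least 8-fold apart, and *hsp-70* was added as a member of a gene list. In all, 547 genes stood in opposite order in this sense.

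Enzyme genes of the propionate shunt, *acdh-1* and *hphd-1*, were lower at L4 in wild type and higher at L4 in the mutant libraries. *acdh-1*, an acyl-CoA dehydrogenase, measured 788 and 909 RPM in wild-type L4, 2858 and 1578 in wild-type L2, 879 and 807 in K718E L4, and 2.35 and 73.0 in *cer39* L2. Its ratio was -1.39 in wild type and 4.47 in the mutant libraries. The *cer39* libraries were the low ones in each of the next genes too. *acdh-2* had -1.70 and 2.82, *hphd-1* had -1.29 and 2.15, and *pmp-5* had -1.59 and 1.67. *F15E6.4* (-1.56 and 2.39), *C09B8.4* (-1.22 and 1.92) and *lep-5* (-2.04 and 2.62) showed the same order.

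The opposite order, with *cer39* L2 high, was that of *mtl-2*, a metallothionein (0.65 in wild type, -2.60 in the mutant libraries), *hrg-4*, a heme transporter (1.60 and -1.66), *cav-1*, a caveolin (0.47 and -3.25), and *hsp-70* (1.25 and -1.34). *him-4*, which encodes hemicentin, a large extracellular matrix protein, had -2.66 in wild type and 0.52 in the mutant libraries. It measured 69.0 and 82.3 RPM in wild-type L4 and 260 and 268 RPM in K718E L4.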

How the results depend on the processing

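Under other settings than those reported, the number of genes past 8-fold at L4 (432) became 270 with a pseudocount of 2 RPM, 968 at 4-fold, 216 at 16-fold and 877 with percentile ranks differing by over 30 points. The number at L2 (489) became 836 with a pseudocount of 0.1 RPM, 239 with 2 RPM, 310 when centred on the median ratio, 285 with median-of-ratios size factors, 1901 at 4-fold, 122 at 16-fold and 98 by the edgeR test. Centring gave 541 genes at L4, so that the L4 genes then outnumbered the L2 genes. Other settings turned the order of the 2 counts as well. Among them were median-of-ratios factors (578 at L4 against 285 at L2) and leaving out L2 replicate 1 (436 against 411). A denominator over the genes of both tables, added later, gave 479 against 421. Leaving out 1 library gave 423 to 449 genes at L4 and 411 to 591 at L2. Median-of-ratios scaling moved the median of all genes from -0.32 to 0.13, and under it 6 of 25 list medians changed sign (vulva and uterus, somatic gonad, body wall muscle, abu- and pqn- genes, mitochondrial mRNAs and housekeeping genes). No paired design is given by the labels, which only share replicate numbers between stages. The edgeR test with the replicate number as a block called 317 genes at L4 and 88 at L2. Differences between replicates correlated at -0.16 across genes between the stages, and the crossed pairing, added after seeing the data, called 374 and 108. Summing only transcripts listed in both tables, also added later, reversed *cyb-3* to -0.73 (the cause was not tested) and kept 368 of 432 and 356 of 489 genes. Under that setting the log2 ratios of 134 named genes shifted by -10.18 to 2.84. Without L2 replicate 1, 10 of 98 named genes past 8-fold fell short of it, and without L2 replicate 2, 6 did. Low values limit the rest: 184 L4-high and 140 L2-high genes were at or under 1 RPM in the lower stage.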
